A study of Mus musculus with 6 samples.

Results

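Nonclassical MHC class I molecules resemble the classical transplantation antigens in fold, but most vary little between individuals and show a restricted set of peptides, lipids or metabolites to particular T cells and NK cells. The 9 genes described here were taken as a list of gene names out of 54232 genes in the expression files. They were H2-T22, H2-T23, H2-T24, H2-Q4, H2-Q6, H2-Q7 and H2-M3, which lie in the MHC on chromosome 17, and Mr1 and Cd1d1, which lie outside it. All 9 were found in the files and all 9 passed the filter on low counts.

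The libraries were made from monocytes of the central nervous system (CNS) of mice with experimental autoimmune encephalomyelitis (EAE), a myelin-directed disease that serves as a model of multiple sclerosis. Irradiated GFP+ recipients were given equal amounts of bone marrow from WT donors, which carried CD45.1, and from Ifnar1-/- donors, which carried CD45.2 and lack a chain of the type I IFN receptor. All mice were injected daily with 30000 IU of IFN-β, and at the peak of disease GFP- CD45+CD11b+Ly6ChiLy6G- cells of each donor were sorted, which gave 3 WT and 3 Ifnar1-/- libraries. The study names 3 such recipients, each carrying marrow of both donors, and the labels do not tie a library to a mouse. Both groups thus came from treated animals with EAE, and no library from untreated mice was used here. Receptor genotype and donor strain differ together in this design and cannot be told apart, nor can fewer cells of a type and less RNA per cell.

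Type I IFN is a known inducer of MHC class I transcription. Class I heavy chains pair with the light chain β2-microglobulin, are loaded with help from the TAP transporter and tapasin, and share promoter elements bound by IFN-activated factors, NF-κB and the NLRC5 enhanceosome. H2-T23 encodes Qa-1, which presents leader peptides of other class I molecules to CD94/NKG2A. H2-Q6 and H2-Q7 encode Qa-2, and H2-Q4 encodes Qb-1. H2-T22 is a ligand of γδ T cells. H2-M3 presents N-formylated peptides, MR1 presents vitamin B metabolites to MAIT cells, and CD1d1 presents lipids to NKT cells.

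Promoter sequence is shown first, as a description. The motifs were chosen with the promoter sequences in view, so the genome shares given here are no test of these genes. RefSeq windows were found for 7 of the 9 genes, all except H2-T24 and Cd1d1, and the 250 bases before each start were searched on both strands for 4 motifs. TTTCACTTC is the core of the IFN consensus sequence of class I promoters and was in 0.402% of 32851 such windows of the genome. GAAANNGAA, a part of the IFN-stimulated response element, was in 7.13%. GGGATTCCC, from the κB site of enhancer A, was in 0.301%. TGATGAC, from the X2 box to which the NLRC5 enhanceosome is recruited, was in 2.69%. None of these matches overlapped another in the windows of the genes described. The lines below are 5′ to 3′ on the strand of each gene, with the IFN consensus core in capitals, or for H2-T22 and H2-T23 the response element part (reverse strand). They lie on chromosome 17 of GRCm38.p6. Those of H2-T23 and H2-D1 were kept to 30 bases because they fall inside the annotated gene.
H2-Q4, chr17:35379419-35379497, plus strand: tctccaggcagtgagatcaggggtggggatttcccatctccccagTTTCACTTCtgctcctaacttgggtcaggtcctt
H2-Q6, chr17:35424653-35424731, plus strand: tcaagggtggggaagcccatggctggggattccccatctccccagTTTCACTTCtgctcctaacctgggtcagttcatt
H2-Q7, chr17:35438997-35439075, plus strand: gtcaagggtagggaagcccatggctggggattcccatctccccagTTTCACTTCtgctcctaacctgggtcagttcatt
H2-M3, chr17:37270088-37270166, plus strand: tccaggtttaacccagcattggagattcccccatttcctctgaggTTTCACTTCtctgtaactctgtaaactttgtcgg
H2-T22, chr17:36042899-36042977, minus strand: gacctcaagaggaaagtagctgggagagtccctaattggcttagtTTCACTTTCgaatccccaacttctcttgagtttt
H2-T23, chr17:36032805-36032834, minus strand: tcctactgctTTCTCTTTCataaagacaca
H2-K1, chr17:34000404-34000482, minus strand, a classical gene: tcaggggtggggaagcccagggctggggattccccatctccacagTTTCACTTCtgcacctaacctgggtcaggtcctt
H2-D1, chr17:35262934-35262963, plus strand, a classical gene: atctcctcagTTTCACTTCtgcacctaacc

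The κB site began 20 bases ahead of the IFN consensus core in H2-Q6 and 19 bases ahead in H2-Q7, and 20 bases ahead in the classical H2-K1 and H2-D1. H2-Q4 and H2-M3 held the IFN consensus core without that exact κB sequence. Other spellings of the motifs were not searched. The H2-Q4 line holds ggggatttccc ahead of its core, and the H2-T22 line holds tTTCACTTTC, which is close to the IFN consensus core. An X2 box lay closer to the start in H2-T22, H2-Q4, H2-Q6, H2-Q7 and H2-M3, and also in the classical H2-D1, but was not in the H2-K1 windows. H2-T23 held only the response element part, and the Mr1 window held none of the 4 motifs. A match describes letters in these windows, and no binding was measured.

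**Figure D1:**
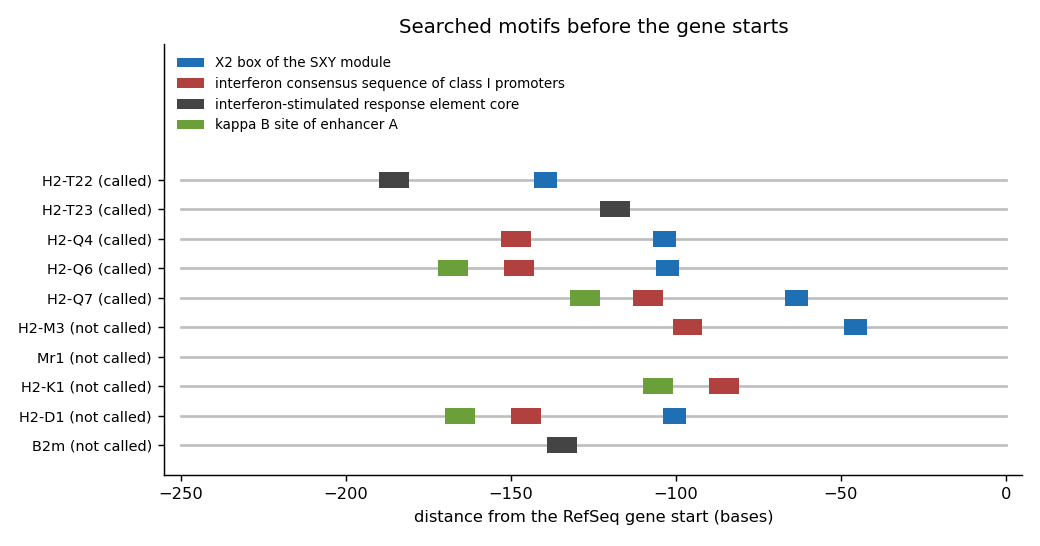
Positions of the 4 searched motifs in the 250 bases before the RefSeq start of 7 nonclassical class I genes, H2-K1, H2-D1 and B2m. The x axis is the distance from the start in bases, and each coloured box is a match. Row labels give the edgeR call between WT and Ifnar1-/- monocytes. The IFN consensus core stands in H2-Q4, H2-Q6 and H2-Q7, which were called, and in H2-M3, H2-K1 and H2-D1, which were not. DESeq2 called H2-K1 and H2-D1 as well. The exact letters of the core are absent from H2-T22 and H2-T23, which were called.

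The files gave an expected count per gene, which is a read count that the authors' program divided among genes sharing reads. Libraries held 4531782 to 7321380 expected counts in WT and 5442568 to 6916101 in Ifnar1-/-, and the 9 genes drew from 28 (Mr1) to 2787 (H2-T23) of these in a library. Between libraries, levels are given as normalized CPM, counts scaled to a common library size with TMM, a method that takes most genes to keep the same level. The whole-gene level of Ifnar1, in normalized CPM, was 153, 126 and 111 for WT against 110, 102 and 109 for Ifnar1-/- monocytes; a count over the whole gene does not resolve the targeted part of the locus and does not check the labels. Monocyte markers such as Itgam, Csf1r and Lyz2 were among the abundant genes, with 7801 to 9587 summed normalized CPM over 7 markers in WT and 8262 to 9523 in Ifnar1-/- libraries. The 7 markers did not move as one. Ly6c2, a gene of the Ly6C antigen used in the sort, was called higher in WT, at 726, 788 and 640 against 177, 300.3 and 337 normalized CPM (2.65-fold, adjusted p = 0.00957, edgeR). Fcgr1, an Fc receptor gene, had every WT library higher (412.9, 278 and 271 against 203, 194 and 192), and Ccr2, a chemokine receptor gene, every WT library lower (648, 694 and 587 against 1269, 794 and 905). Neither was called by edgeR (adjusted p = 0.0839 and 0.143), and DESeq2 called both. The part of these marker differences in the class I results was not tested.

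Of the 9 genes, 6 were expressed more highly in WT than in Ifnar1-/- monocytes (a gene was called when its adjusted p did not exceed 0.05 and its level changed 1.5-fold or more), and 0 were lower, by edgeR and by DESeq2 alike, with 0 lower at an unadjusted p under 0.05. The 6 were H2-T24, H2-Q6, H2-Q7, H2-T22, H2-Q4 and H2-T23, all in the MHC. Over all 11254 genes tested, 1.67% were called higher and 0.462% lower in WT. The 9 genes were chosen with earlier results of these data known, so the shares of all genes given beside them are no test of the list. The median log2 fold change was 1.01 over the 9 genes and -0.01 over all tested genes. In 7 of the 9 genes every WT library lay above every Ifnar1-/- library, as was so for 11.1% of all tested genes, and in 0 was it the reverse, against 12.2%.

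H2-T24, a gene of the T region (chr17:36005695-36020560, minus strand), differed most. It was at 91.1, 52.7 and 54.5 normalized CPM in the WT libraries, numbered 1 to 3, against 9.62, 18.3 and 13.2 in those of Ifnar1-/- monocytes. The lowest WT library was well above the highest Ifnar1-/- library, and WT library 1 stood above the other two. WT monocytes had 4.85-fold more H2-T24 RNA (log2 fold change 2.28 ± 0.27 SE, adjusted p = 0.00128 from edgeR), which was the 58th highest log2 fold change of all tested genes.

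The Qa-2 genes H2-Q6 (chr17:35424850-35430055) and H2-Q7 (chr17:35439155-35443773), both on the plus strand, followed. H2-Q6 measured 219, 187 and 176 normalized CPM in WT and 34.7, 68.5 and 60.3 in Ifnar1-/- libraries. H2-Q7 measured 263, 216 and 235 in WT and 70.1, 114 and 101 in Ifnar1-/- libraries. For both genes the groups were far apart, WT library 1 was the highest and Ifnar1-/- library 1 the lowest. The WT level was 3.57-fold higher for H2-Q6 (log2 fold change 1.84 ± 0.23 SE, adjusted p = 0.00173, edgeR) and 2.50-fold higher for H2-Q7 (1.32 ± 0.19 SE, adjusted p = 0.00444, edgeR). The pair shares sequence, and 9.80% of the 75-base stretches of H2-Q6 also occur in H2-Q7, so the division of reads between them is uncertain. Their summed counts were higher in WT by a log2 fold change of 1.53 (adjusted p = 0.00293, edgeR). The sum does not cover stretches shared with other genes. Of all stretches 21.1% for H2-Q6 and 17.0% for H2-Q7 occur in another gene, such as H2-Q4 (4.43% of H2-Q6), H2-Q10 (8.88% of H2-Q7) and H2-Q5 (5.32% of H2-Q7).

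H2-Q4 (chr17:35379617-35385290, plus strand) was at 258, 224 and 245 normalized CPM in WT and at 99.1, 126 and 135 in Ifnar1-/- libraries. Its WT libraries varied little, with an SD of 7.05% of the mean. The WT level was 2.02-fold higher (log2 fold change 1.01 ± 0.16 SE, adjusted p = 0.00719, edgeR). An antisense gene, Gm11131, overlaps it and drew 8 to 26 counts per library, against 649 or more for H2-Q4. Of the 75-base stretches of H2-Q4, 20.7% occur in another gene, with 13.4% in Gm11131 and 3.43% in H2-Q6.

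Both remaining called genes lie in the T region on the minus strand. H2-T22 (chr17:36037128-36042747) was at 201, 266 and 182 normalized CPM in WT and at 85.1, 119 and 94.2 in Ifnar1-/- libraries, and it was 2.17-fold higher in WT (log2 fold change 1.12 ± 0.19 SE, adjusted p = 0.0114, edgeR). H2-T23, the Qa-1 gene (chr17:36029773-36032855), was at 397, 425 and 331 in WT and at 187, 246 and 220 in Ifnar1-/- libraries, 1.76-fold higher in WT (0.82 ± 0.16 SE, adjusted p = 0.0311, edgeR). The groups did not overlap for either gene, and WT library 2 was the highest in both, unlike the H2-Q genes and H2-T24. The other 4 calls were kept whichever library was left out, and these 2 were not. Without Ifnar1-/- library 1 or 3 the adjusted p of H2-T22 was 0.0792 or 0.0745, and that of H2-T23 was 0.151 or 0.133. Without WT library 1 or 2 the H2-T23 value was 0.0609 or 0.0720. H2-T22 shares 15.7% of its 75-base stretches with H2-T10, and 25.2% with an antisense gene, A930015D03Rik, which drew 2 to 9 counts per library.

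**Figure D2:**
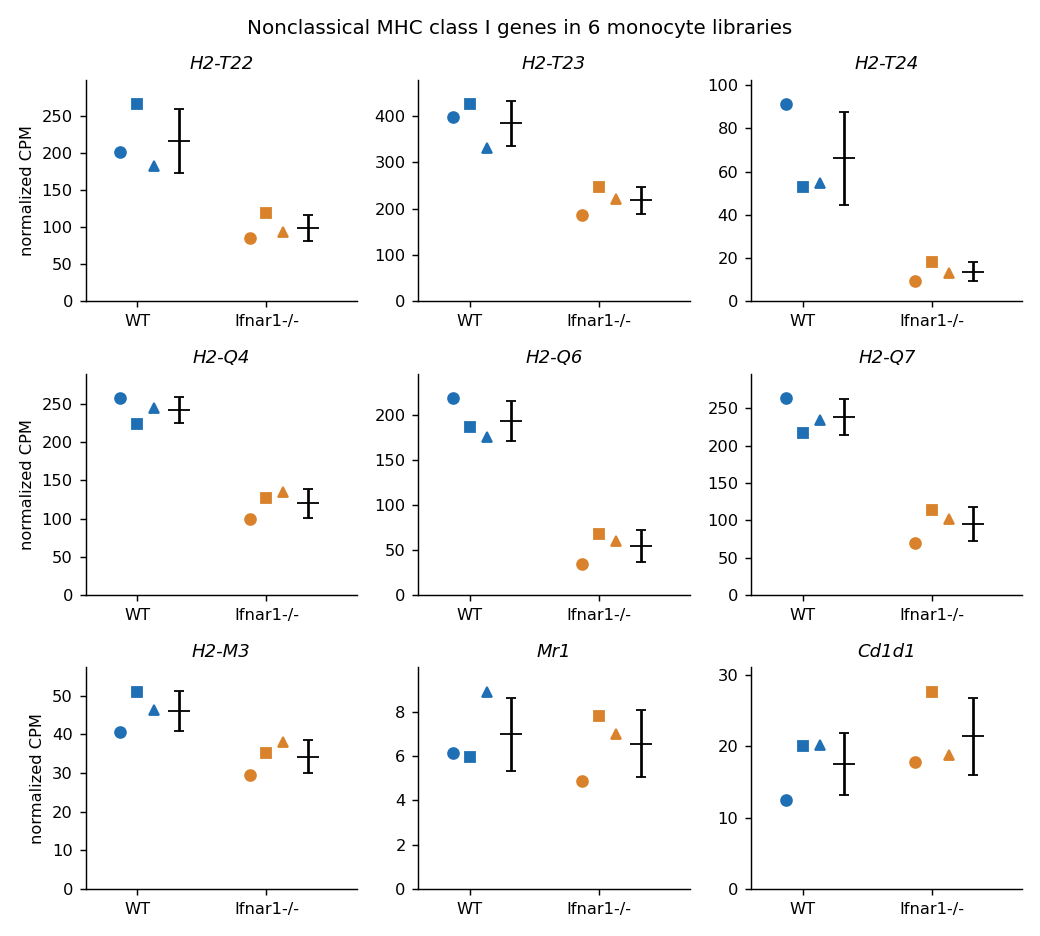
Normalized CPM (y axes, each from 0) of the 9 nonclassical class I genes in WT (blue) and Ifnar1-/- (orange) monocyte libraries; circles, squares and triangles are libraries 1, 2 and 3, and black bars give the mean ± SD (n = 3). The groups are apart in the top 6 panels and in H2-M3, and they overlap for Mr1 and Cd1d1.

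The other 3 genes were not called. H2-M3 (chr17:37270220-37274484, plus strand), the formyl-peptide presenter, was at 40.7, 51.0 and 46.4 normalized CPM in WT and at 29.6, 35.1 and 38.1 in Ifnar1-/- libraries. Its groups did not overlap, but the difference missed the threshold (log2 fold change 0.43 ± 0.15 SE, adjusted p = 0.187, edgeR). It shared no 75-base stretch with another gene.

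Mr1 (chr1:155127277-155146814, minus strand) was low, at 6.12, 5.95 and 8.88 normalized CPM in WT and 4.89, 7.79 and 6.99 in Ifnar1-/- libraries. The groups overlapped (log2 fold change 0.09 ± 0.28 SE, adjusted p = 0.903, edgeR), and it drew 28 to 46 counts per library, so small changes were not detectable at this depth. Mr1 lies 17.0 Mb from Ptprc, the gene of the CD45 marker that differs between the donors.

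Cd1d1 (chr3:86995834-86999441, minus strand), the NKT cell ligand, was at 12.5, 20.0 and 20.1 normalized CPM in WT and at 17.9, 27.6 and 18.8 in Ifnar1-/- libraries. It was the one gene of the 9 with a negative log2 fold change (-0.30 ± 0.24 SE, adjusted p = 0.563, edgeR), and its groups overlapped. Of its 75-base stretches 14.2% are shared with Cd1d2.

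Transcripts of lymphocytes, which the sort was meant to leave out, were present at low levels. Of 9 T cell markers, 7 passed the filter, and 0 were called by edgeR and 3 by DESeq2. By edgeR 6 were higher in WT at an unadjusted p under 0.05, a count without a share of all genes beside it. For 5 markers every WT library was above every Ifnar1-/- library, as for 11.1% of all tested genes. The summed level of the 9 was 94.2 to 128 normalized CPM in WT and 46.5 to 55.1 in Ifnar1-/- libraries. Most of it was Il7r, and none of the 9 was at 0 in all libraries. Cd3e, a defining marker, was at 5.98, 2.98 and 8.09 normalized CPM in WT and at 2.75, 0.508 and 1.84 in Ifnar1-/- libraries. The sum of 7 NK cell markers was 11.5 to 26.5 in WT and 2.37 to 10.38 in Ifnar1-/- libraries. Neutrophil markers summed to more than the T cell markers in every library, although the sort took Ly6G- cells. The sum of these 7 was 236, 450 and 1219 normalized CPM in WT and 497, 491 and 1292 in Ifnar1-/- libraries. Of them 6 passed the filter, and 0 were called by edgeR or by DESeq2. Ly6g itself drew 0 to 4 counts. The part of these cells in the class I differences was not tested.

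The classical heavy chains H2-K1 and H2-D1 and the light chain B2m, which the nonclassical molecules share, were the nearest comparison. H2-K1 was at 2028, 1841 and 1685 normalized CPM in WT and at 926, 1218 and 1185 in Ifnar1-/- libraries. H2-D1 was at 2767, 2407 and 2344 in WT and at 1363, 1808 and 1691 in Ifnar1-/- libraries. In both, and in B2m, every WT library was above every Ifnar1-/- library. None was called by edgeR: the fold was 1.67 for H2-K1 (adjusted p = 0.0664), 1.55 for H2-D1 (0.114) and 1.61 for B2m (0.118). All 3 were called by DESeq2 (adjusted p = 0.000791, 0.00767 and 0.0118), as were the same 6 nonclassical genes, in a fit that called 3.15% of tested genes higher in WT. The edgeR result also turned on the settings. Without a filter on low counts H2-K1 and B2m were called (adjusted p = 0.00953 and 0.0234, edgeR). They were also called with a replicate block and offsets for GC content and length (0.0461 and 0.0434, edgeR), and limma-voom called H2-K1 (0.0445). Over all tested genes the log2 fold change correlated with GC content (Spearman's rho 0.37) and with length (0.22). With offsets for both and no block, the log2 fold change of B2m was 1.06, against 0.68 in the main fit. That was above H2-Q4 (0.86) and H2-T23 (0.69) in the same fit, where H2-Q6 was at 1.62 and H2-K1 at 0.62.

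**Figure D3:**
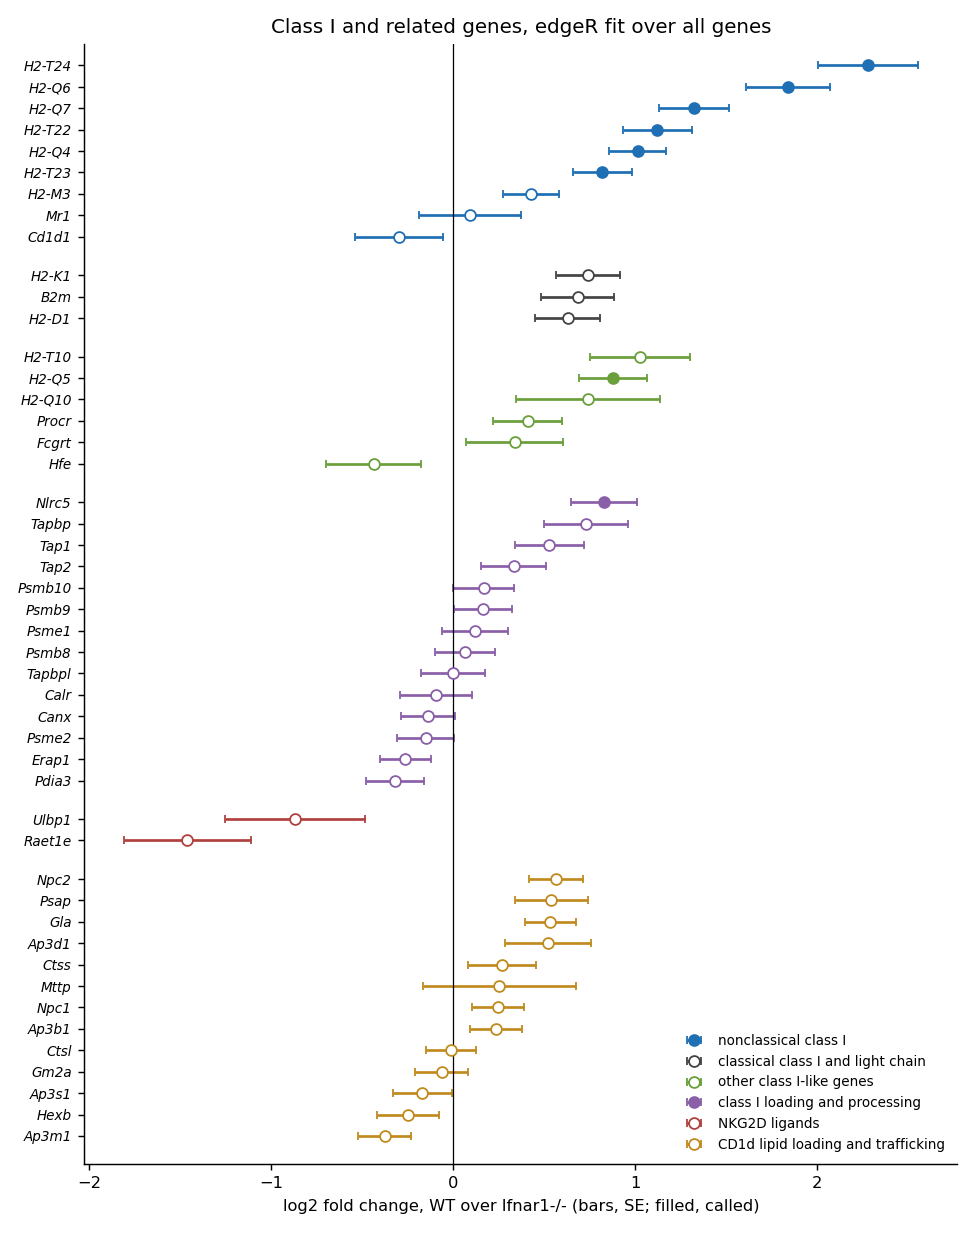
Log2 fold change of WT over Ifnar1-/- (x axis, bars SE) from the edgeR fit over all genes for the tested members of 6 gene lists, with filled points for called genes. H2-T24 and H2-Q6 lie at 2.28 and 1.84, the classical chains between 0.63 and 0.74, and Cd1d1 at -0.30.

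Whether a nonclassical gene differed by more than the classical chains was asked within each library, from the log2 ratio of its normalized CPM to the sum of H2-K1 and H2-D1. H2-T24 was at 1.91, 1.25 and 1.36% of that sum in WT and at 0.442, 0.621 and 0.478% in Ifnar1-/- libraries. H2-Q6 was at 4.58, 4.42 and 4.39% in WT and at 1.54, 2.28 and 2.11% in Ifnar1-/- libraries. H2-Q7 was at 5.50, 5.10 and 5.83% in WT and at 3.08, 3.80 and 3.53% in Ifnar1-/- libraries. These ratios were clearly apart, and that of H2-Q6 was close to constant among WT libraries. The mean ratio was higher in WT by 1.55 on the log2 scale for H2-T24, by 1.196 for H2-Q6 and by 0.66 for H2-Q7. For H2-T22, H2-Q4 and H2-T23 the differences were 0.43, 0.34 and 0.14. The H2-T23 ratios were nearly level, at 8.28, 10.0 and 8.22% in WT against 8.19, 8.15 and 7.65% in Ifnar1-/- libraries, and with H2-K1 alone, B2m or TPM as the base they overlapped.

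The groups did not overlap for these 6 genes, where 1.35% of all tested genes had WT libraries all above, and with 3 libraries against 3 the exact two-sided permutation test gave p = 0.1, the smallest it can give, for each of them. A fit across all genes in which libraries were scaled to H2-K1 plus H2-D1 called 3 of the 9 genes higher in WT, against 1.14% of all genes. They were H2-T24 (log2 fold change 1.60 ± 0.25 SE, adjusted p = 0.000371), H2-Q6 (1.18 ± 0.22, adjusted p = 0.00114) and H2-Q7 (0.66 ± 0.21, adjusted p = 0.0136). H2-T22 (adjusted p = 0.0795), H2-Q4 (0.148) and H2-T23 (0.540) were not called. In this fit 51.5% of all genes were called lower, which makes the adjustment over all genes looser. The unadjusted p of H2-Q7 was 0.00428 (edgeR). This scaling moves the median log2 fold change of all genes to -0.70. Values in it state a difference from H2-K1 plus H2-D1, not from most genes.

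Mr1 and Cd1d1 were lower relative to the classical chains in every WT library than in every Ifnar1-/- library. Cd1d1 was at 0.272, 0.482 and 0.512% of the H2-K1 plus H2-D1 sum in WT and at 0.802, 0.929 and 0.670% in Ifnar1-/- libraries. The scaled fit called it lower (log2 fold change -0.94 ± 0.27 SE, adjusted p = 0.00901, edgeR). This is no mark of Cd1d1, since 51.5% of all genes were called lower in that fit and 64.5% had all WT ratios below.

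**Figure D4:**
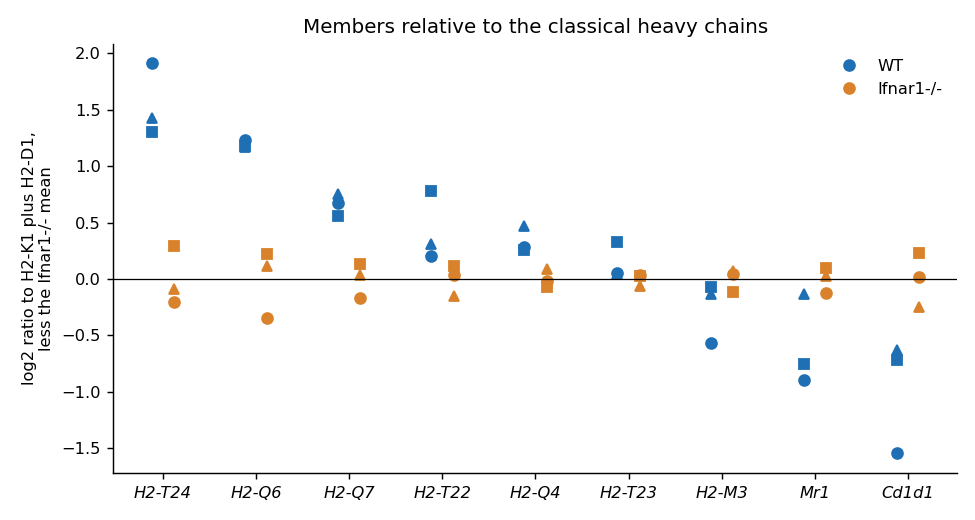
Log2 ratio of each nonclassical gene to H2-K1 plus H2-D1 (y axis, normalized CPM, less the mean of the Ifnar1-/- libraries) in WT (blue) and Ifnar1-/- (orange) libraries; circles, squares and triangles are libraries 1, 2 and 3. The WT points lie 1.55 above the Ifnar1-/- points on average for H2-T24 and 0.97 below them for Cd1d1.

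Levels of different genes were compared per length, in TPM as deposited. In WT library 1 the small RNA gene Rn7s2 took 27.8% of the TPM, against 7.36 to 11.2% in the other 5, which leaves less of the fixed total to every other gene, so the order is read within libraries. H2-T23 was the most abundant nonclassical gene in all 6, at 268 ± 59.3 TPM in WT and 152 ± 34.3 in Ifnar1-/- monocytes (SD, n = 3). H2-K1 stood at 1418 ± 199 and 859 ± 182 TPM. In WT, H2-Q7 (142 ± 17.2), H2-Q4 (132 ± 21.4), H2-T22 (131 ± 43.3) and H2-Q6 (113 ± 16.8) came next. H2-Q7 was above H2-Q4, and H2-Q4 above H2-Q6, in 3 of 3 WT libraries, whereas H2-T22 changed places with each of them between libraries. In Ifnar1-/- monocytes the order was H2-Q4 (65.6 ± 13.1), H2-T22 (59.7 ± 16.2), H2-Q7 (53.7 ± 21.5) and H2-Q6 (33.0 ± 11.2), and neighbours changed places except that H2-Q7 was above H2-Q6 in 3 of 3 libraries.

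Among the scarcer genes, the place of H2-T24 differed between the groups. It was above Cd1d1 in 3 of 3 WT libraries (30.3 ± 2.94 against 12.4 ± 4.75 TPM) and below it in 3 of 3 Ifnar1-/- libraries (6.65 ± 2.27 against 20.1 ± 6.71 TPM). H2-M3 (34.6 ± 10.07 TPM in WT) was above H2-T24 in 2 of 3 WT libraries. Mr1 was the least abundant in all 6 libraries, at 3.19 ± 1.19 TPM in WT and 2.74 ± 0.68 in Ifnar1-/- monocytes.

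The 9 genes made up 21.9, 24.01 and 23.3% of the TPM of 29 class I heavy chain genes in WT and 18.2, 19.9 and 19.0% in Ifnar1-/- libraries. All 3 WT shares were above all 3 Ifnar1-/- shares, a difference of 4.01 percentage points (exact two-sided permutation test, p = 0.1, the smallest possible). Among the 9 genes the shares of H2-Q6 and H2-Q7 differed most in percentage points. They went from 1.49 ± 0.24 to 3.01 ± 0.04% and from 2.39 ± 0.51 to 3.82 ± 0.32% of the total (Ifnar1-/- to WT, SD, n = 3). In proportion the shares of H2-T24 (0.30 ± 0.04 to 0.83 ± 0.20%) and Cd1d1 (0.91 ± 0.11 to 0.32 ± 0.10%) differed more. The shares of H2-T22 and H2-T23 overlapped between the groups. The share of H2-D1 was lower in WT (34.7 ± 1.47 against 39.9 ± 1.31%).

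**Figure D5:**
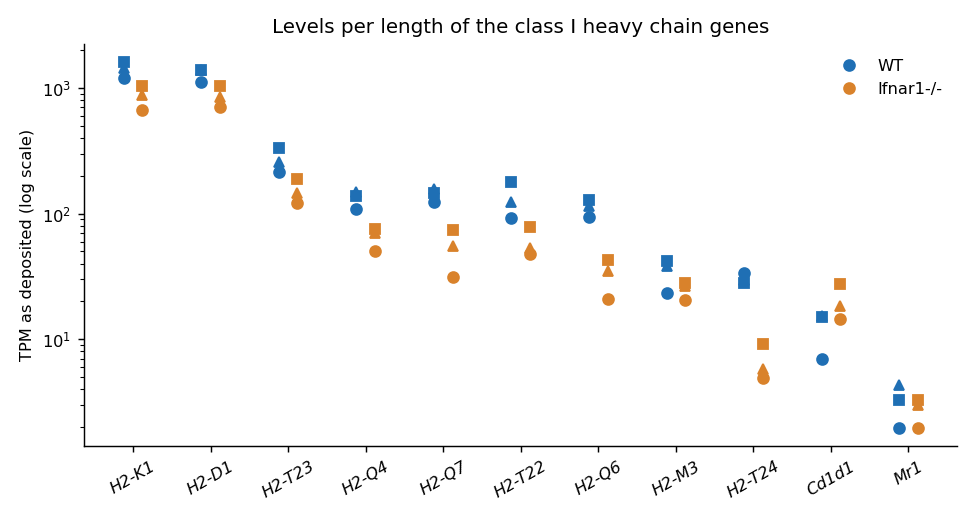
TPM as deposited (y axis, log scale) of H2-K1, H2-D1 and the 9 nonclassical genes in WT (blue) and Ifnar1-/- (orange) libraries, with circles, squares and triangles for libraries 1, 2 and 3. H2-T24 lies above Cd1d1 in the WT libraries and below it in the Ifnar1-/- libraries, and Mr1 is lowest in all 6.

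Other genes of the pathway were read from the same fit. Of 14 genes of class I loading and processing, all tested, 1 was called higher in WT, where 1.67% of all tested genes were. Lower in WT were 0 (0 at an unadjusted p under 0.05), where 0.462% of all tested genes were called lower. The median log2 fold change of the 14 was 0.09. The called gene was Nlrc5, the transactivator of class I promoters, at 343, 245 and 275 normalized CPM in WT and 155, 193 and 139 in Ifnar1-/- libraries (log2 fold change 0.83 ± 0.18 SE, adjusted p = 0.0466, edgeR). This call was lost without WT library 1 or 3 or without Ifnar1-/- library 1 or 3, with adjusted p up to 0.206, and in a fit with a replicate block (adjusted p = 0.0678, edgeR). Tap1, a peptide transporter chain, and Tapbp, the tapasin gene, had all WT libraries higher but were not called (0.53 ± 0.19 SE and 0.73 ± 0.23 SE, adjusted p = 0.178 and 0.145, edgeR). DESeq2 called Tapbp in addition to Nlrc5, in a fit that called 3.15% of tested genes higher in WT. The immunoproteasome genes Psmb8, Psmb9 and Psmb10 had log2 fold changes of 0.06 to 0.17.

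Of 32 other class I-like genes, 29 were in the files, 16 of them at 0 in all libraries, and 6 were tested. Of these 1 was called higher in WT, where 1.67% of all tested genes were. H2-Q5 was called higher in WT (33.0, 32.5 and 28.2 against 13.3, 17.5 and 20.4 normalized CPM; log2 fold change 0.88 ± 0.19 SE, adjusted p = 0.0420, edgeR), a call that was lost when any 1 library was left out, with adjusted p of 0.0520 to 0.133, and with a replicate block (0.0659). In TPM as deposited H2-Q5 differed more, at 166, 192 and 99.99 in WT against 23.01, 56.5 and 18.8 in Ifnar1-/- libraries, and stood above H2-Q7 in 2 of 3 WT libraries; the TPM of H2-Q5 did not follow its counts from library to library. H2-T10, the near copy of H2-T22, had 12.0, 8.08 and 9.67 against 4.73, 3.73 and 6.25 normalized CPM and was not called (log2 fold change 1.03 ± 0.27 SE, adjusted p = 0.0919, edgeR). Of 13 genes of CD1d lipid loading and trafficking, all tested, 0 were called by edgeR or by DESeq2. By edgeR 3 were higher and 1 lower in WT at an unadjusted p under 0.05. Of the NKG2D ligands, stress-induced class I relatives, 2 of 9 were tested and 0 were called by edgeR. Both were lower in WT at an unadjusted p under 0.05 (edgeR). DESeq2 called 1, Raet1e, lower, as it did 115 of 11254 tested genes. The share of all tested genes at an unadjusted p under 0.05 was not computed, so these counts have no background. Raet1e was at 1.57, 4.04 and 3.36 normalized CPM in WT and at 9.16, 7.79 and 6.99 in Ifnar1-/- libraries (log2 fold change -1.46 ± 0.35 SE, adjusted p = 0.0661, edgeR).

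The genes outside these lists with the most similar profile were named for each called gene by Pearson's r of log2(normalized CPM + 0.5) over the 6 libraries, as a description. All 6 libraries fall into 2 groups, so any gene with a clear group difference scores high. For H2-T24 they were Rnf213, Znfx1 and Themis2 (r = 0.999, 0.998 and 0.998), all called higher in WT. For H2-Q6 they were Trafd1, Slco3a1 and Xaf1 (r = 0.999, 0.996 and 0.991), and for H2-Q7 they were Slco3a1, Trafd1 and Dvl3 (all r = 0.995). For H2-Q4 they were Sap30, Nectin4 and Ppp1r12c (r = 0.996, 0.994 and 0.991). For H2-T22 they were Bco2, Ddx59 and Gm15056 (r = 0.992, 0.990 and 0.989), and for H2-T23 they were Parp9, Spg11 and Prdx6 (r = 0.996, 0.995 and 0.995). The H2-Q6 and H2-Q7 lists share 2 of 3 genes, and the other lists share none.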

How the data were processed

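RNA of sorted CNS monocytes from 3 WT and 3 Ifnar1-/- libraries was sequenced by the authors; the submitters' processing notes name STAR 2.6.0c, RSEM 1.2.31 and GRCm38. The library kit differs between the labels and the study's methods, and the strand setting is not given in the sources used here. The deposited expected counts are estimated, not normalized, and were rounded to whole numbers. The deposited TPM values come from the authors' RSEM run, per length and per library total, and the deposited FPKM values, also from the authors, served as an alternative only. Gene names and positions came from GENCODE M21, which matched 54165 of 54232 identifiers and left 67 unmatched.

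WT was compared with Ifnar1-/- across all genes with edgeR 4.0.16 in R 4.3.3 (TMM, filterByExpr with a minimum count of 10, quasi-likelihood test, Benjamini-Hochberg adjustment over 11254 tested genes, no block). Calls needed an adjusted p not above 0.05 together with a 1.5-fold or larger change. Single values were compared with exact two-sided permutation tests, which cannot go below 0.1 with 3 libraries against 3, on log2(normalized CPM + 0.5). The study names 3 recipient mice, each with marrow of both donors, but the labels do not say which libraries share a mouse, so the main fit has no block and p-values measure the spread between libraries. Alternatives were DESeq2 1.42.0, limma-voom (limma 3.58.1), RLE normalization, other filters, offsets for GC content and length (mgcv 1.9.3), no mitochondrial or rRNA genes, summed near-identical copies, a call without the fold, a replicate block, and leaving out each library. The fit scaled to H2-K1 plus H2-D1, TPM rescaled to protein-coding genes, and the share without H2-Q5 were added after the data were seen.

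Named genes were the 9 members, H2-K1, H2-D1, B2m, every called gene of the class I, NKG2D ligand and CD1d lists, copies with any count, Ifnar1, and the 3 most similar protein-coding genes of each called member. Tap1, Tapbp, the immunoproteasome genes, Raet1e, the shown markers and the antisense genes were added to the text with their values known. The members and lists were chosen with earlier results of these data known, and the motifs with the promoter sequences in view. H2-Q8, H2-Q9 and H2-T9 were looked for but were not among the matched gene names. The summed copies were therefore H2-Q6 plus H2-Q7 and H2-T22 plus H2-T10. Shared 75-base stretches and promoter windows were computed from GENCODE M21 transcripts and RefSeq. A count of 3 was taken as the floor, which covers counting error only.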

Additional observations from a re-analysis of the deposited data

How the results depend on the processing

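The same 6 genes were called higher in WT, and 0 lower, under 9 of the alternative fits in which single genes were kept apart: DESeq2, RLE, limma-voom, no filter, at least 10 counts in every library, removal of mitochondrial and rRNA genes, a call by adjusted p without the fold, and GC and length offsets with and without the block. Summed copies kept both sums called. Leaving out 1 library gave 4 to 6 genes higher and 0 lower, with losses only for H2-T22 and H2-T23. Scaled to H2-K1 plus H2-D1, 3 were called higher and 1, Cd1d1, lower. Over all genes, the main counts were 188 higher and 52 lower in WT; DESeq2 gave 354 and 115, no filter on low counts gave 610 and 262, and leaving out 1 library gave 110 to 204 and 7 to 41. Relative to the classical heavy chains, 6 genes had all WT libraries above and 2 (Mr1, Cd1d1) all below. With H2-K1 alone, B2m or TPM as the base the first number was 5, as H2-T23 dropped out. With H2-D1 alone the second number was 1. It was 3, with H2-M3 added, for H2-K1 alone and without WT library 2 or Ifnar1-/- library 2. The cause of these changes was not tested. The share of heavy chain TPM was 22.6 to 23.7% in WT and 18.6 to 19.5% in Ifnar1-/- with 1 library left out.

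In a fit with a replicate block, 182 genes were higher and 38 lower, and the same 6 nonclassical genes were called. Nlrc5 (adjusted p = 0.0678 from edgeR) and H2-Q5 (0.0659) were not. With the block and DESeq2, 226 and 52 genes were called. Same-numbered libraries had deviations from the group means that correlated at 0.0974, 0.0213 and 0.232, which did not establish a pairing; 5 of 6 libraries correlated best with their own number, and Ifnar1-/- library 2 did not. H2-K1 and B2m, not called in the main analysis, were called by DESeq2, without a filter, and with the block and offsets, and H2-K1 also by limma-voom. Of the 9 genes Mr1 drew the fewest counts, 28 to 46 a library.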
